A study of Mus musculus with 12 samples.

Results

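Collagen genes were followed in arrays of mouse small intestine. They were taken as every gene whose symbol is Col, a type number, the letter a and a chain number, from Col1a1 to Col28a1, on a probe set that names no other gene. Of 19937 genes on the arrays, 44 met this rule, and the brightest probe set stood for each gene. Genes whose mean level lay under the 40th percentile of the table were called dim and were not tested. This left 39 collagen genes among 11962 genes tested, and set aside Col4a6, Col10a1, Col19a1, Col25a1 and Col28a1.

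The arrays came from 12 male FVB mice, labelled with an age of 8 weeks and called wild type, with the diets given for 8 weeks. In the control group 6 mice ate a high-fat diet (Control HF diet). The other 6 mice ate the Low P/S diet, poor in polyunsaturated relative to saturated fat, whose label does not say whether it was also high in fat. The design text calls the arrays of a group biological replicates. The part of the small intestine, the wall layers taken and the time of dissection are not given in the labels. The title of the series concerns how the intestine itself secretes cholesterol, and no collagen question is stated.

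Collagens are secreted proteins of the extracellular matrix in which glycine recurs through a long stretch, so that chains wind into a triple helix. Fibrillar collagens such as types I and III form the load-bearing fibrils of the lamina propria, submucosa and muscle coat, and are made there mainly by fibroblasts and smooth muscle cells. Type IV builds the sheet under epithelium, vessels and muscle cells, type VI forms beaded filaments around cells, and fibril-associated collagens (FACITs, with interrupted triple helices) sit on the surface of fibrils. Before secretion the chains are hydroxylated, glycosylated and folded in the endoplasmic reticulum, and afterwards they are trimmed, crosslinked and in part broken down by matrix metalloproteinases.

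The stretch just before the gene start is shown for the members with higher values that had an entry among the RefSeq promoter windows (GRCm38.p6), namely Col1a2, Col3a1 and Col6a2, because these genes moved in the same direction. Each line gives 250 bases read in the direction of the gene, from chr6:4505368-4505617 (plus strand) for Col1a2, chr1:45311288-45311537 (plus strand) for Col3a1 and chr10:76623631-76623880 (minus strand, the more upstream of the listed starts) for Col6a2. Capitals mark matches to the sequences of the CCAAT box, the GC box (GGGCGG) and the TATA box (TATAAA), on either strand. Whether a match works as such a box was not tested.
Col1a2: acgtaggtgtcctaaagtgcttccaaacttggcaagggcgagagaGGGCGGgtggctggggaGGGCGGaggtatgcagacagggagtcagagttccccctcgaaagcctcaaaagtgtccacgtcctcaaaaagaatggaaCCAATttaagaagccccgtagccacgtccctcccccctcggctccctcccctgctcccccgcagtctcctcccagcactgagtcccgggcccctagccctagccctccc
Col3a1: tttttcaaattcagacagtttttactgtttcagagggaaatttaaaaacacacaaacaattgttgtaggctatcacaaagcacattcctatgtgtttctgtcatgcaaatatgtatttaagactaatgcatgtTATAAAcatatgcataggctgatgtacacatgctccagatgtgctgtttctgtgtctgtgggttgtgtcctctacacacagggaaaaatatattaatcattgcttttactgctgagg
Col6a2: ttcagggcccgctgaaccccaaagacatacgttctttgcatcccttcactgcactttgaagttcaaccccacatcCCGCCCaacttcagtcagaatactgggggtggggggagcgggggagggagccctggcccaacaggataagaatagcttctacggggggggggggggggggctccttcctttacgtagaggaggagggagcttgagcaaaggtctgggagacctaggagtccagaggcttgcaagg
The Col1a2 window held CCAAT beginning 109 bases before the start and GGGCGG beginning 205 and 188 bases before it. The Col3a1 window held TATAAA at 117 bases, and the Col6a2 window held GGGCGG once, on the opposite strand at 175 bases. The window before the other listed Col6a2 start held GGGCGG on that strand at 67, 15 and 11 bases. Of these motifs, only those at 15 and 11 bases before that start overlapped each other. Over all 32851 windows of this length, 33.8% held CCAAT, 32.7% GGGCGG and 12.4% TATAAA, so each is common. Among the 35 collagen genes with a window, 13 held CCAAT (37.1%), 21 held GGGCGG (60%) and 5 held TATAAA (14.3%). Here a gene counted if any of its windows held the motif (38 windows in all), so these shares are not per window. The windows of Col4a1 and Col4a2 lie head to head on chromosome 8, with starts 21 bases apart on opposite strands.

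Transcripts that were more abundant in intestine of mice fed low P/S came from the type I chain genes Col1a1 and Col1a2, the type III gene Col3a1, the type VI gene Col6a2 and the FACIT genes Col12a1 and Col14a1. Transcripts of the FACIT genes Col9a3 and Col20a1 were less abundant. Under other processing or with arrays left out, Col1a1, Col1a2 and Col9a3 each lost their call in 1 alternative and Col20a1 in 7. All of these differences were small, from 1.11-fold to 1.28-fold. The other 31 tested members did not pass, among them all 5 tested type IV genes. Differences are log2 values of low P/S over control, with the standard error from limma, and a gene passed at a Benjamini-Hochberg adjusted p under 0.05 over all genes tested. Passing members made up 6 of 39 higher (15.4%) and 2 of 39 lower (5.13%). Over all genes tested, 17.8% were higher and 7.87% lower, 25.7% in all, so collagen genes passed about as often as all genes tested, and the counts say nothing particular about them. These shares are not matched for level. Between the 40th and 50th percentile 3.61% of all genes were higher and 3.11% lower, against 28.5% and 14.7% above the 90th. No tested member lay above the 80th percentile. The diets did not overlap for 3 of 39 members, all higher (Col1a2, Col6a2 and Col14a1), while over all genes 6.86% were higher and 3.9% lower without overlap, 10.8% in all. With quantile normalization the members gave 4 higher and 3 lower, against 14.8% higher and 12.9% lower over all genes. The median difference was -0.06 over the 39 members and 0.02 over all genes tested. The arrays read RNA from a mixture of cells, where fewer cells of a type and less RNA per cell cannot be told apart.

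**Figure D1:**
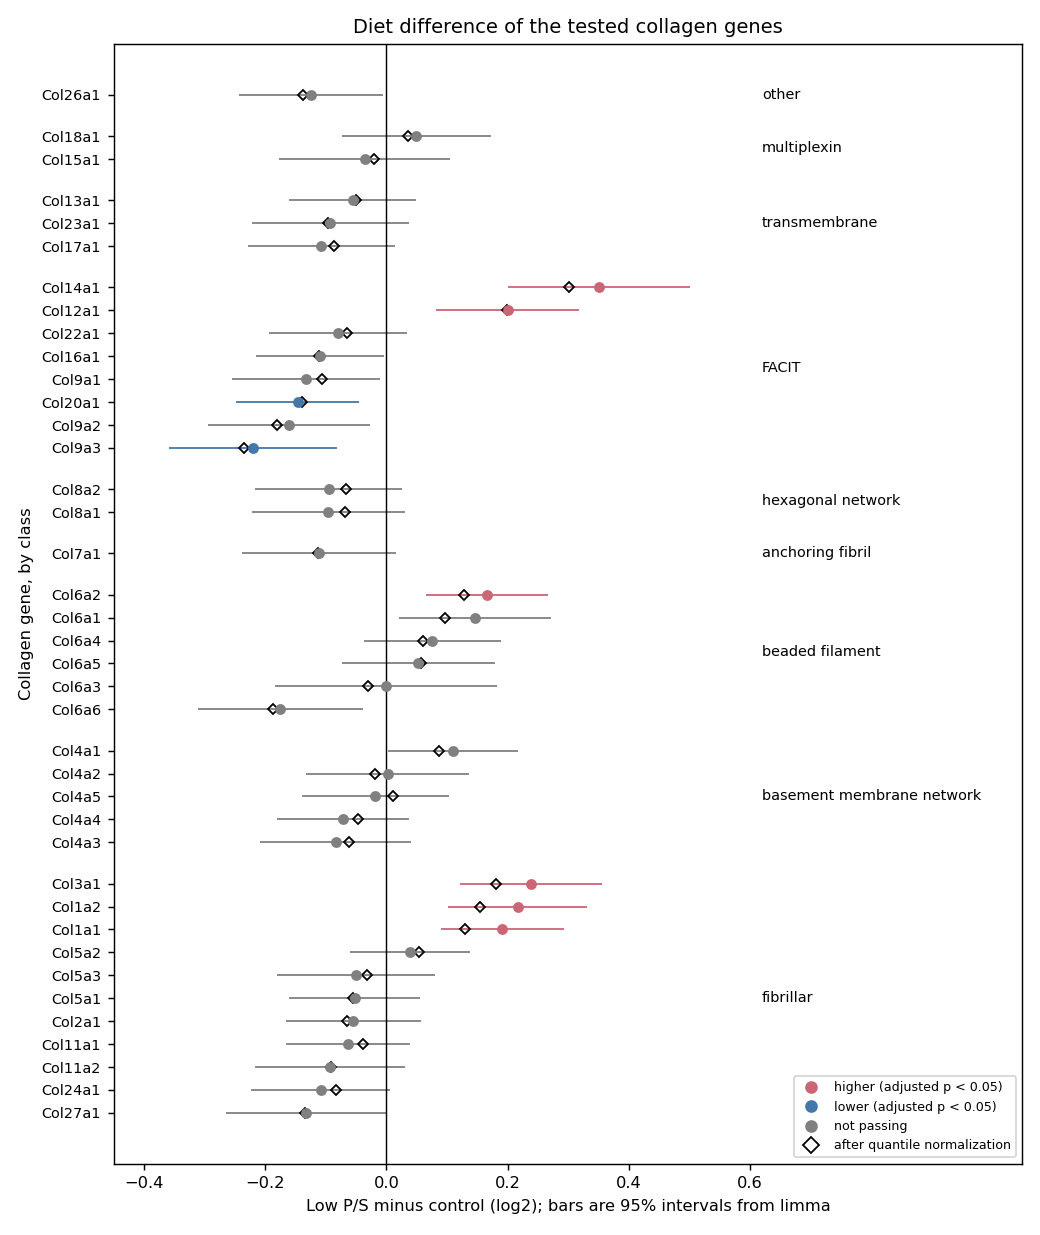
Difference between diets (log2, low P/S over control) of the 39 tested collagen genes, grouped by class, with 95% intervals from limma (6 arrays per diet); open diamonds are the same differences after quantile normalization. Col14a1 lies farthest to the right at 0.35 and Col9a3 farthest to the left at -0.22.

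Among the fibrillar collagens, Col1a1 (Entrez 12842), which encodes the more abundant chain of type I collagen, had control intensities from 253 to 284 with a median of 269. On the low P/S diet they ran from 279 to 323 with a median of 306. Only low P/S array 1, the lowest of its group, lay within the control range. The difference was 0.19 ± 0.05, or 1.14-fold (adjusted p = 0.00846). Its partner chain gene Col1a2 (Entrez 12843) had control values from 254 to 299 (median 280.2) and low P/S values from 306 to 346 (median 326). The groups did not overlap, and the rise was 0.22 ± 0.05 or 1.16-fold (adjusted p = 0.00816). Col3a1 (Entrez 12825), whose product joins type I in the fibrils of distensible tissue, went from 235 to 274 (median 249) in controls and from 266 to 327 (median 298) on low P/S. Low P/S array 6 and control array 2 were the arrays that overlapped. This rise of 0.24 ± 0.06 was 1.18-fold (adjusted p = 0.00525). With quantile normalization Col1a1 and Col1a2 no longer passed (0.13, adjusted p = 0.0759, and 0.15, adjusted p = 0.0551), while Col3a1 did (0.18, adjusted p = 0.0299).

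The remaining 8 fibrillar genes did not pass. The type V genes, whose products start fibrils and limit their width, had differences of -0.05 for Col5a1 (95% interval -0.16 to 0.06), 0.04 for Col5a2 (-0.06 to 0.14) and -0.05 for Col5a3 (-0.18 to 0.08). The cartilage fibril genes Col2a1, Col11a1 and Col11a2 had differences of -0.05, -0.06 and -0.09. Col24a1 and Col27a1, minor fibrillar types, had -0.11 (adjusted p = 0.154) and -0.13 (adjusted p = 0.130). As a class, 3 of 11 fibrillar genes rose (1 of 11 with quantile normalization, Col3a1) against 17.8% of all genes, none passed as lower, and 1 had an unadjusted limma p under 0.05 in the lower direction.

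**Figure D2:**
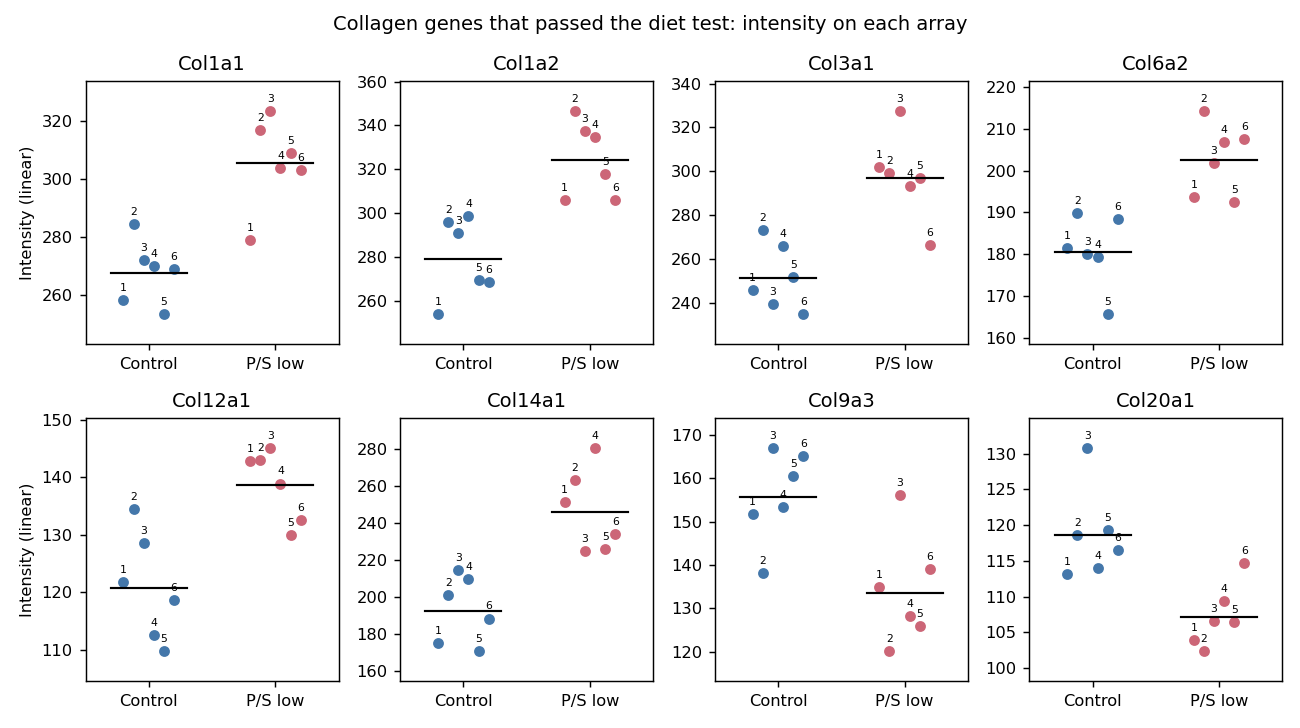
Linear intensity on each of the 12 arrays for the 8 collagen genes that passed, with replicate numbers beside the points and a bar at the geometric mean of 6 arrays; each panel has its own axis, which does not start at 0. Col1a2, Col6a2 and Col14a1 show no overlap between the diets.

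The FACIT class had 2 of 8 tested genes higher, 2 lower and 4 not passing, beside 17.8% higher and 7.87% lower over all genes tested. Col14a1 (Entrez 12818), whose product binds type I fibrils and the proteoglycan decorin, showed the largest difference of any collagen gene. Its control values ran from 171 to 215 (median 195) and its low P/S values from 225 to 280.5 (median 243). Every low P/S array lay above every control array, with a rise of 0.35 ± 0.07, or 1.28-fold (adjusted p = 0.00222). Col12a1 (Entrez 12816), which encodes the closest relative of type XIV in this class, had control values from 109.8 to 134 (median 120.2) and low P/S values from 130.002 to 145 (median 141). Control array 2 was the one control array inside the low P/S range, and the rise was 0.20 ± 0.06 or 1.15-fold (adjusted p = 0.0152).

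Col9a3 and Col20a1 were the lower members. Col9a3 (Entrez 12841), a chain of the type IX collagen known from cartilage, had control values from 138 to 167 (median 157) and low P/S values from 120.3 to 156 (median 132). Low P/S arrays 3 and 6 lay above the lowest control array, and the fall was -0.22 ± 0.07 (1.16-fold lower, adjusted p = 0.0210). The partner chain genes Col9a1 and Col9a2 had differences of -0.13 (adjusted p = 0.103) and -0.16 (adjusted p = 0.0705). Col20a1 (Entrez 73368) went from 113 to 131 (median 118) in controls and from 102 to 115 (median 107) on low P/S, with control array 3 the highest and only low P/S array 6 above the lowest controls. The fall was -0.15 ± 0.05 (adjusted p = 0.0343). It no longer passed when control array 3 or 5, or any of low P/S arrays 1, 2, 3 and 5, was left out (adjusted p of up to 0.0809). Col16a1 and Col22a1 had differences of -0.11 and -0.08 and did not pass.

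In type VI collagen, whose filaments link cells to the surrounding fibrils, Col6a2 (Entrez 12834) rose by 0.17 ± 0.05 or 1.12-fold (adjusted p = 0.0178). Control values lay between 166 and 189.8 (median 181) and low P/S values between 193 and 214 (median 204), with no overlap. Col6a1 (Entrez 12833) had control values from 178 to 219.9 and low P/S values from 199 to 242, overlapping between 199 and 219.9. Its difference of 0.15 ± 0.06 did not pass (adjusted p = 0.0788). Col6a3, the third chain of the common trimer, had a difference of -0.00059 with a 95% interval from -0.18 to 0.18, and the widest spread of the members (SE 0.09). Col6a4, Col6a5 and Col6a6 encode chains that can take the place of Col6a3. Col6a4 differed by 0.08 and Col6a5 by 0.05, and neither passed. Col6a6 ran from 129 to 163 in controls and from 117 to 141 on low P/S and differed by -0.18 ± 0.06 (adjusted p = 0.0553), which passed with quantile normalization (-0.19, adjusted p = 0.0393).

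Col6a5 and Col6a6 had a further probe set each. For Col6a5 the dimmer probe set rose from a geometric mean of 94.7 to 118 (0.32, exact two-sided permutation p = 0.0022 over the 12 arrays, the smallest that 6 against 6 can give), unlike the 0.05 of the one used. With the mean of both probe sets Col6a5 passed in limma (0.19, adjusted p = 0.00987). The dimmer Col6a6 probe set, at 57.1 and 55.7, differed by -0.03 (exact permutation p = 0.381).

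Ratios of chains within an array, from which a constant factor per array cancels but a scaling that depends on level does not, were compared for all 34 pairs of tested genes of the same collagen type. The log2 ratio of Col6a1 to Col6a6 rose from 0.48 ± 0.13 (SD, n = 6) to 0.80 ± 0.11 (SD, n = 6; exact two-sided permutation p = 0.0022, adjusted p = 0.0368 over the 34 pairs). For Col6a2 to Col6a6 it rose from 0.33 to 0.67 (exact permutation p = 0.0043, adjusted p = 0.0491), and for Col6a5 to Col6a6 from -0.30 to -0.07 (exact permutation p = 0.0022, adjusted p = 0.0368). The first and last of these ratios separated the diets on every array. The ratio of the type I chains Col1a1 to Col1a2 differed by -0.03 (exact permutation p = 0.472), and that of Col4a1 to Col4a2 by 0.11 (exact permutation p = 0.0498, adjusted p = 0.213). The 3 passing pairs all share the Col6a6 probe set, so they are not separate findings. With quantile normalization these 3 pairs also passed, with differences of 0.28, 0.32 and 0.24. Without control array 2, 6 pairs passed. None passed without any 1 of 9 arrays (control 1, 3, 4 or 5, or low P/S 1, 2, 4, 5 or 6), where fewer arrays raise the smallest p that can be reached. The Col6a2 ratio also did not pass without control array 6 (adjusted p = 0.0736).

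**Figure D3:**
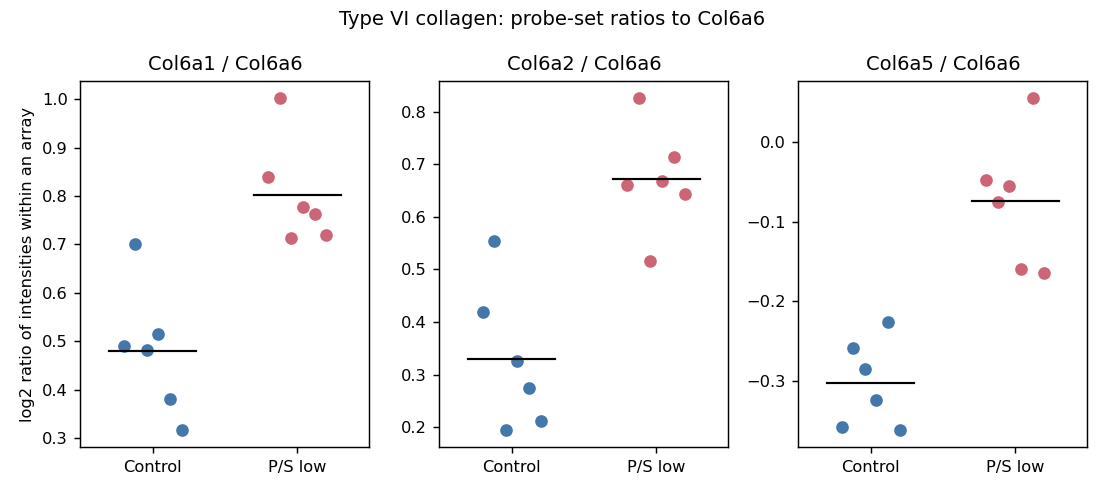
Log2 ratio of the intensities of Col6a1, Col6a2 and Col6a5 to that of Col6a6 within each array, 6 arrays per diet, with a bar at the group mean; axes differ between panels and do not start at 0. The mean ratio to Col6a6 rose from 0.48 to 0.80 for Col6a1, from 0.33 to 0.67 for Col6a2 and from -0.30 to -0.07 for Col6a5.

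The basement membrane genes showed no passing difference, and only Col4a1 had an unadjusted limma p under 0.05 (1 of 5 tested). Col4a1 (Entrez 12826), which with Col4a2 makes the type IV network found in all basement membranes, had control values from 144 to 159 and low P/S values from 151 to 175. These ranges overlapped between 151 and 159, with a difference of 0.11 ± 0.05 (adjusted p = 0.121). Its head-to-head neighbour Col4a2 had control values from 132 to 167 and low P/S values from 139.5 to 173, and differed by 0.0021 (95% interval -0.13 to 0.14), with the sign turning to -0.02 under quantile normalization. Col4a3, Col4a4 and Col4a5, the chains of the kidney filter network, differed by -0.08, -0.07 and -0.02. Col15a1 and Col18a1, multiplexins that tie basement membranes to the matrix beneath and in the case of Col18a1 carry the endostatin fragment, differed by -0.04 and 0.05.

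Collagens of other tissues gave values of the same small size. The anchoring fibril gene Col7a1 and the hemidesmosome gene Col17a1, both known from skin, differed by -0.11 (adjusted p = 0.185) and -0.11 (adjusted p = 0.182). The other transmembrane genes Col13a1 and Col23a1 differed by -0.06 and -0.09, and the hexagonal network genes Col8a1 and Col8a2 by -0.10 and -0.10. Col26a1 differed by -0.12 (adjusted p = 0.115). None of these 7 genes passed, and Col26a1 was the one with an unadjusted limma p under 0.05. Of the 5 dim genes, geometric means lay between 62.6 and 77.5 in both diets, against the limit of 85.6 below which genes were not tested. Just inside that limit stood Col4a5 (85.6 to 86.8) and Col8a2 (84.1 to 89.8), and just outside it Col4a6 (75.2 to 77.5).

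Members with weak signal mostly had small negative differences, and those with stronger signal positive ones. Between the 40th and 50th percentile of level, 13 members had a median difference of -0.08, and all 1993 genes of that band one of -0.04. Between the 50th and 60th percentile the medians were -0.09 for 15 members and -0.00092 for all genes. In the next band they were 0.08 for 7 members and 0.04 for all genes. Above the 70th percentile stood 4 members (Col1a1, Col1a2, Col3a1 and Col14a1), all of which rose, with a median of 0.23 against 0.06 for all genes up to the 80th percentile, of which 23.5% were higher. With quantile normalization the member medians of these bands were -0.06, -0.10, 0.06 and 0.17, and those of all genes lay within 0.02 of 0.

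**Figure D4:**
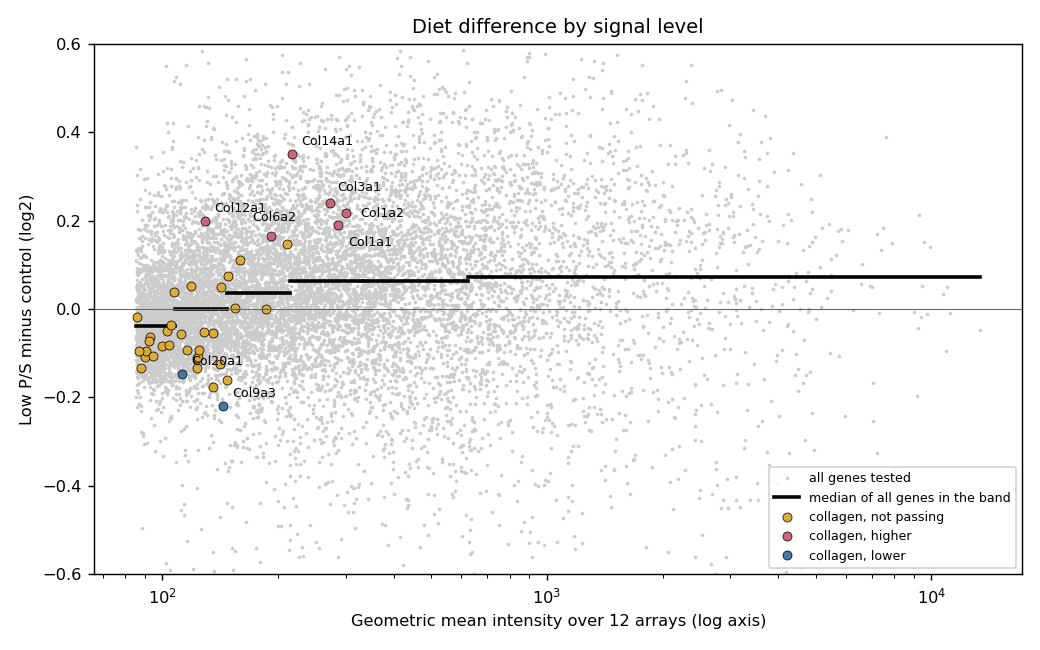
Low P/S minus control (log2) against geometric mean intensity over 12 arrays (log axis) for all 11962 genes tested (grey) and the 39 collagen genes (coloured), with black bars at the median of all genes in each level band. The medians of all genes climb from -0.04 in the dimmest band to 0.07 in the brightest; 230 genes with differences beyond 0.6 fall outside the plot.

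Of the 26 members with a negative difference, 24 had their highest value on control array 3 or control array 6. These arrays also had the highest medians over all probe sets among the controls (99.5 and 98.0, against 94.5 to 95.7 for the other control arrays). How often other genes with a negative difference peaked on control arrays 3 and 6 was not counted. The 24 of 26 is therefore not shown to be particular to collagen genes. Leaving both out was tried once the values were known, and since they were picked for their high values it draws negative differences towards 0 by construction and is no test. The 6 higher members then passed, while Col9a3 (-0.17, adjusted p = 0.121) and Col20a1 (-0.12, adjusted p = 0.123) did not. Without control arrays 1 and 2 instead, 10 members were lower. That choice gives control arrays 3 and 6 more weight among the controls left, so it is no test either. The part of these arrays in the lower values was not tested.

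For the counts of this and the following lists, the shares over all genes tested were 17.8% higher and 7.87% lower. Genes that modify and fold collagen had 3 of 15 tested members higher, none lower and 12 not passing (median 0.02). The highest of these, Ppib, encodes cyclophilin B, a prolyl isomerase that speeds folding of the triple helix but serves other secreted proteins too. Its intensity ran from 1056 to 1367 in controls and from 1442 to 1733 on low P/S, with no overlap (0.37 ± 0.07, 1.29-fold, adjusted p = 0.00162). Colgalt1, which attaches galactose to hydroxylysine, rose 1.16-fold (adjusted p = 0.00342), and Fkbp14, another folding isomerase, 1.17-fold (adjusted p = 0.00444), both without overlap between the diets. Crtap, a partner of the prolyl 3-hydroxylase, had 0.15 (adjusted p = 0.0582), which passed with quantile normalization (adjusted p = 0.0376). Serpinh1, the collagen chaperone HSP47, had a difference of -0.05 (adjusted p = 0.597).

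Procollagen processing and crosslinking genes had 5 tested members, of which none passed by limma in either direction and 1 had an unadjusted p under 0.05. Bmp1, a protease that removes the C-terminal propeptide, had 0.19 (adjusted p = 0.120), its enhancer Pcolce 0.07, and the crosslinking oxidases Loxl1 and Loxl3 -0.08 and 0.05. Among 11 tested genes of collagen breakdown and its inhibitors, 3 were higher, none lower and 8 did not pass (median 0.09). Mmp10, the protease stromelysin 2, rose 1.28-fold (0.36 ± 0.07, adjusted p = 0.00195), from control values of 106 to 127 to low P/S values of 129.6 to 169. Mmp14, a membrane-bound collagenase, rose 1.14-fold (adjusted p = 0.00747) and Mmp2, the gelatinase it activates, 1.13-fold (adjusted p = 0.0155). All of these separated the diets on every array. Mmp2 stood at an adjusted p of 0.0499 with quantile normalization, and the Paneth cell protease gene Mmp7 had 0.29 (adjusted p = 0.0522).

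Of 5 tested collagen receptors, 1 fell and 4 did not pass. The one that fell was Ddr1, a receptor tyrosine kinase of epithelial cells that binds collagen (-0.22 ± 0.06, adjusted p = 0.0170). Its values overlapped between 206 and 217. Its fibroblast relative Ddr2 had 0.03, and the integrin genes Itga2 and Itgb1 0.14 and 0.08. Among 16 tested laminin and other basement membrane genes, 2 rose, 2 fell and 12 did not pass. Lamb3 and Lamb1, laminin beta chains of epithelial and general basement membranes, rose 1.498-fold (adjusted p = 0.0104) and 1.25-fold (adjusted p = 0.00289), while Lama3, the alpha chain that pairs with Lamb3 in laminin-332, was 1.41-fold lower (adjusted p = 0.000792). Agrn, a basement membrane proteoglycan, was 1.17-fold lower (adjusted p = 0.0178). Ddr1 and Lamb3 each lost their call in 1 alternative (adjusted p = 0.0683 and 0.0607).

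Proteins that decorate fibrils and other matrix proteins had 5 of 25 tested genes higher, 2 lower and 18 not passing (median -0.02). Podn, which encodes the small leucine-rich proteoglycan podocan, showed the largest difference of this list. Control values ran from 435 to 472 and low P/S values from 175 to 293, a fall of 1.87-fold (-0.90 ± 0.09, adjusted p = 9.56e-06). Fbln1, for the matrix glycoprotein fibulin 1, was 1.39-fold lower (adjusted p = 0.000205), again with no overlap. Bgn, the type I fibril proteoglycan biglycan, rose 1.29-fold (adjusted p = 0.00461) and Sparc, a collagen-binding matricellular protein, 1.25-fold (adjusted p = 0.00389). The other higher genes of this list were Fn1, Fbln5 and Ecm1 (1.22-fold, 1.18-fold and 1.25-fold), of which Fbln5 did not pass with quantile normalization (adjusted p = 0.0511) or without control array 4 (adjusted p = 0.0572). Ecm1 lost its call in 6 of 23 alternatives, among them those without control array 3, 4 or 6 and low P/S array 2 or 4 (adjusted p of up to 0.157). In the TGF-beta pathway, a main inducer of collagen genes, 1 of 15 tested genes rose, 3 fell and 11 did not pass. The receptor gene Tgfbr2 rose 1.19-fold (adjusted p = 0.00319), while the signal carriers Smad3 and Smad4 and the inhibitor Smad7 were 1.23-fold, 1.197-fold and 1.18-fold lower (adjusted p = 0.00959, 0.00475 and 0.0169). Fn1, Smad3 and Smad7 each lost their call in 1 alternative (adjusted p = 0.0532, 0.0509 and 0.0531).

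**Figure D5:**
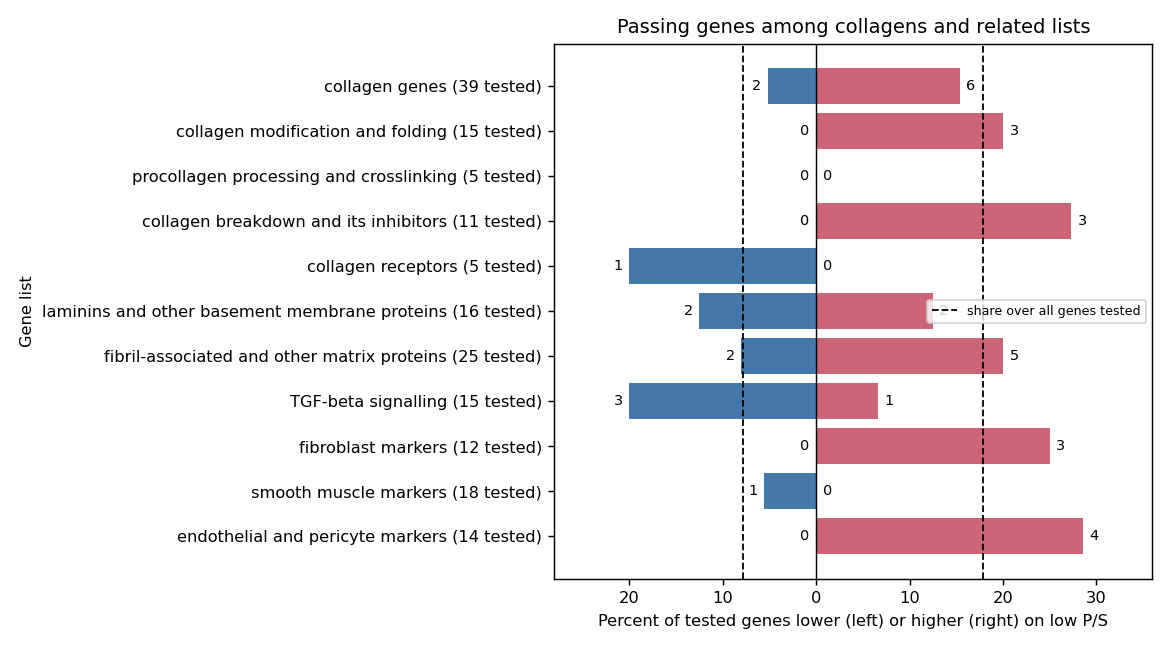
Percent of tested genes that passed as lower (left, blue) or higher (right, red) on the low P/S diet for the collagen genes and related lists, with counts beside the bars and dashed lines at the shares over all genes tested (7.87% and 17.8%). Bars rest on 5 to 39 genes, so a single gene moves the shortest lists by 20%.

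Markers of cells that make collagen were read beside these values. Of 12 tested fibroblast markers 3 rose and none fell, beside 17.8% higher and 7.87% lower over all genes, a background that also holds for the marker counts that follow. These were the growth factor receptor genes Pdgfra (1.35-fold, from 280.3 to 375 in controls against 387 to 476, adjusted p = 0.000464) and Pdgfrb (1.25-fold, adjusted p = 0.00474) and the complement gene C1s1 (1.17-fold, adjusted p = 0.0249). C1s1 lost its call in 6 of 22 alternatives, among them those without control array 1 or 6 and low P/S array 3 or 4 (adjusted p of up to 0.0914). The brightest of the list, Dpt, Vim and Gsn, had 0.06, 0.06 and -0.09 and did not pass. The summed intensity of the list ran from 2650 to 3407 in controls and from 2931 to 3449 on low P/S. Smooth muscle markers had 1 of 18 lower (Hspb7), none higher and 17 not passing, with 16 of 18 differences negative and a summed intensity of 13042 to 18516 in controls and 10747 to 15008 on low P/S. Hspb7 lost its call in 7 of 22 alternatives, among them those without control array 3, 4, 5 or 6 and low P/S array 2 or 4 (adjusted p of up to 0.135). The brightest, Acta2, Myh11 and Tpm1, had -0.09, -0.10 and 0.03. Of 14 endothelial and pericyte markers 4 rose (Kdr, Emcn, Plvap and Lyve1, by 1.15-fold to 1.203-fold) and none fell, at summed intensities of 2520.1 to 3175 and 2550.2 to 3283, while the bright pericyte gene Rgs5 had -0.03. With quantile normalization 5 of the 14 rose, without Lyve1 (adjusted p = 0.0880). Lyve1 lost its call in 7 of 23 alternatives, among them those without control array 4 and low P/S array 1, 3 or 4. Kdr did so in 7 of 22, among them those without control array 4, 5 or 6 and low P/S array 1, 2 or 4 (adjusted p of up to 0.0777). Emcn lost its call in 1 alternative (adjusted p = 0.0809). The part of these cell types in the collagen values was not tested.

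The tissue label was read against other markers. All 20 small intestinal epithelium markers were bright enough to test, led by Apoa4 (geometric means of 13608 and 13173), Lyz1 (10767 and 11146) and Fabp2 (9793 and 9724). Of these 20 markers 2 were higher and 5 lower (1 and 7 with quantile normalization), and both higher ones, Cdx2 and Fabp1, lost their call in some alternatives (4 and 15 of 23). The lower ones were Lct, Sis, Vil1, Epcam and Krt20, and 4 of them did not overlap between the diets. Lct, Sis and Vil1 kept their call in all 23 alternatives, while Epcam lost it in 1 and Krt20 in 6. The Lct difference lay between -1.06 and -0.84 over these alternatives. The summed intensity of the 20 markers ran from 98007 to 128624 in controls and from 95717 to 108659 on low P/S. Of enteric glia and neuron markers 6 of 12 measured genes were above the limit and none passed, with 1 unadjusted limma p under 0.05 (Snap25 had -0.16, Uchl1 -0.13 and Sox10 -0.09). Adipose markers had 6 of 8 above it, of which Lipe fell (1.14-fold lower, adjusted p = 0.0392), a call lost in 11 of 23 alternatives (adjusted p of up to 0.0944), among them those without control array 1, 2, 4, 5 or 6 and low P/S array 3, 4 or 5, while Cidec had 0.32 and Car3 -0.78 ± 0.66. Exocrine pancreas markers had 3 of 8 above it, with Clps at 0.22, Cela1 at 0.03 and Ctrb1 at -0.10, and none passed or had an unadjusted limma p under 0.05. Their summed intensities were 574 to 637 and 547 to 590 for glia and neurons, 1403 to 2959 and 1296 to 2719 for adipose tissue, and 571 to 697 and 599 to 807 for pancreas, controls first.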

How the data were processed

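Total RNA (500 ng per sample, per the labels, without removal of ribosomal RNA) was labelled for Affymetrix whole-transcript arrays. The authors deposited 1 linear intensity per probe set and array; summarization, scaling and detection calls are not given in the sources used here. Values of 34760 probe sets ran from 17.7 to 20294, and array medians from 91.9 to 99.5. The deposited intensity was taken to log2, so level-dependent scaling could shift small differences. Gene names came from GEO's platform annotation: 21640 probe sets named 1 symbol, 1321 several and 11799 none, and 21553 matched RefSeq by Entrez ID with 0 symbols updated. The brightest probe set was used for the 954 genes with several. Genes below the 40th percentile (intensity 85.6) were left out before adjustment.

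Diets were compared with limma 3.58.1 in R 4.3.3 (lmFit, eBayes, diet as the only term). Ratios used exact permutation tests in SciPy 1.17.1 and were added after the data were seen. On simulated data with 11962 genes, 4 of 50 planted differences of 0.15 were recovered, 29 of 50 of 0.25 and 49 of 50 of 0.5, with 8 false calls of 140. With so few calls the adjusted p was stricter than for the arrays, where 3074 genes were called, so recovery may be understated. The number of arrays limits the precision. Alternatives were quantile normalization, median centring, other filters, the mean of probe sets, a pseudocount of 16, array weights, a trended prior, the replicate block and leaving out arrays. Same-numbered arrays deviated together in 3 of 6 pairs (r over 0.1, in a range from -0.11 to 0.42), not in all, and numbers were not treated as pairs. Whether same-numbered arrays share a batch was not tested. The choice matters for the lower members, which were 2 without and 5 with the replicate block. From each related list up to 4 tested genes of smallest p were named, from marker lists the 3 brightest, and other genes of these lists were chosen after their values were seen. The members and lists were chosen with earlier results of these data known. Some listed genes were not analysed here. Promoter windows were found for 35 members, but none for Col1a1, Col9a3, Col12a1 and Col14a1. The window of Col20a1 is not shown.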

Additional observations from a re-analysis of the deposited data

Results flagged for a closer look

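An array stood apart from the other 5 of its diet in 15 of 194 gene and group combinations, by the gap to its nearest neighbour as a share of the group's log2 range (limit 0.625). Chance gives this in about 1 in 20 groups. Among members, low P/S array 3 was high for Col5a1 (0.8002), Col4a3 (0.749) and Col6a5 (0.629), control array 3 was high for Col20a1 (0.633, at 131 against 119 for the next), and control array 5 was low for Col4a2 (0.716, at 132 against 156). Among related genes, Bgn was high on low P/S array 2 (0.767), Lamb1 on low P/S array 4 (0.627) and Crtap low on control array 6 (0.635). Among markers, Acta2 (0.794) and Dpt (0.696) were low on low P/S array 6, Myh11 (0.643) and Rgs5 (0.625) high on control array 4, Sox10 low on control array 2 (0.742), and Ctrb1 (0.759) and Lyz1 (0.655) high on low P/S array 3.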

How the results depend on the processing

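Of the 8 passing members, 4 (Col3a1, Col6a2, Col12a1 and Col14a1) kept direction and call in every alternative in which they were tested, of 23; the filter at the 60th percentile left 11 members and took out Col9a3, Col12a1 and Col20a1. Of the 31 members not passing, 21 passed in no alternative, and Col6a6 passed as lower in 9. The count of higher members stayed between 4 and 7. The count of lower members, 2, was 0 with the 60th percentile filter (1 at an unadjusted limma p under 0.05), 4 with array weights, 5 with the replicate block, 10 without control arrays 1 and 2 and 0 without control arrays 3 and 6 (2 unadjusted), and leaving out 1 array at a time gave 1 to 5. It was highest there without control array 1 (5) and control array 2 (4), and lowest (1) when control array 3 or 5, or any of low P/S arrays 1, 2 and 5, was dropped. Over all genes, quantile normalization gave 1775 higher and 1543 lower against 2132 and 942, and 1074 were higher without control arrays 3 and 6. The cause of these shifts was not tested. With the block, 7 members were higher and 5 lower, and 4 of 12 arrays correlated best with the array of their own number. No called difference turned its sign; 8 members did so in some alternative, 0 of them passing. Differences of 0.15 were mostly missed on simulated data (4 of 50 recovered). The simulation gave 140 calls against 3074 in the arrays, so its adjusted p was stricter and this recovery does not carry over to them. Most members had weak signal.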

Other observations

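Some proteins carry a collagen-like stretch but no collagen name. In a list of 15 such genes put together after the data were seen, 7 were bright enough to test, 1 was lower, none was higher and 6 did not pass. Over all genes tested, 7.87% were lower and 17.8% higher. Mbl2, which encodes a mannose-binding lectin of innate defence, had control intensities from 113 to 223 and low P/S intensities from 80.1 to 109 with no overlap, a 1.62-fold fall (-0.70 ± 0.14, adjusted p = 0.00168). Colec10, a related collectin gene, had -0.24 ± 0.09 (adjusted p = 0.0728), and the scavenger receptor gene Colec12 and the matrix gene Emid1 had 0.06 and -0.06.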
